A study of Cavia porcellus with 30 samples.

Results

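The early response of guinea pig liver to 100 mg/kg thioacetamide (the high dose) was set against the response to 25 mg/kg (the low dose), both 9 h after treatment. The comparison used 10 of the 30 liver RNA libraries of the series, 5 high dose and 5 low dose Hartley guinea pigs, taken by their dose and duration labels. The vehicle animals of the same time, 5 guinea pigs given saline at 3 ml/kg, served to place each level against untreated liver, and the 10 high and low dose animals of 33 h served to follow the same transcripts in other animals. Each library was poly-A enriched RNA from 1 liver. The sources used here give neither sex, age nor the route of dosing. Liver is the labelled tissue, and it could not be checked against defining markers because the files list Ensembl transcript identifiers without gene names. Transcripts are therefore described in groups and by 4 identifiers that a fixed rule picked, and no gene name was inferred.

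Thioacetamide is oxidised in hepatocytes, mainly by cytochrome P450 enzymes that are richest around the central vein, to a reactive S-dioxide that binds proteins and lipids. Liver in which this happens is known to switch on stress and repair genes within hours, while death of hepatocytes follows later. A response saturates where a larger dose gives no larger change, and a graded response is one that grows with the dose. The question of this comparison was which of the 9 h changes had already reached their full size at the low dose.

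A missed call between doses does not show that doses act alike. A transcript was therefore counted as saturated only where the low dose had changed it at least 2-fold from vehicle (edgeR quasi-likelihood test, Benjamini-Hochberg adjusted p under 0.05) and the 95% interval of the ratio of high to low dose lay wholly inside 1.5-fold either way, without a call between doses. A transcript was called between doses at an adjusted p under 0.05. All others were undecided. The comparisons with vehicle and the comparison between doses share the same low and high dose animals, so a transcript picked for a large low dose change will tend to show a smaller high dose change, and one picked at the high dose the opposite. Both selections are given below, beside a selection made in the 33 h animals, which has neither tilt.

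Of the 10 libraries, low dose totals ran from 23112100 to 32311000 estimated counts and high dose totals from 24909100 to 28612600. The tests covered 18239 of 25824 transcripts in the files, those with enough counts. The TMM scaling factors of the treated groups did not overlap, at 0.944 to 1.05 in low dose animals and 0.858 to 0.934 in high dose animals, with vehicle animals at 0.869 to 0.951. When libraries were scaled by their totals instead, the median log2 difference of all transcripts between doses moved from 0.00 to -0.14, so higher and lower below are relative to TMM scaling. The 100 most abundant transcripts, ranked in vehicle animals of 33 h, held 39.7 ± 1.35% of counts at the high dose and 38.9 ± 1.72% at the low dose (SD, n = 5 each), a difference of 0.80 percentage points that was not called by exact permutation of the 10 animals (two-sided, 252 arrangements, p = 0.421, adjusted p = 0.651 over 2 comparisons). At least 10 counts were reached by 16627 ± 81.9 transcripts at the high dose and 16721 ± 384 at the low dose (SD, n = 5 each), a difference of -93.6 that did not pass the same exact permutation test (p = 0.651, adjusted p = 0.651). On the first principal component of the 15 libraries of 9 h, which held 31.7% of the variance of log2(CPM + 0.5), vehicle animals lay at -48.8 ± 2.41, low dose animals at 13.3 ± 8.31 and high dose animals at 35.5 ± 2.43 (SD, n = 5 each), with no overlap of the low and high dose groups (6.78 to 25.8 and 32.1 to 37.9). The second component held 10.5%, and there vehicle lay between the doses. Low dose animals lay at -24.3 ± 10.7, vehicle animals at 7.17 ± 11.1 and high dose animals at 17.2 ± 14.0 (SD, n = 5 each). The dose groups again did not overlap (-37.8 to -12.7 and -1.75 to 34.2). Animals of the low dose spread more widely than those of the high dose in both the TMM factor and the number of transcripts detected. This did not hold for expression levels. Over 10858 transcripts the median SD of log2 CPM within a group was 0.162 at the low and 0.175 at the high dose.

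**Figure D1:**
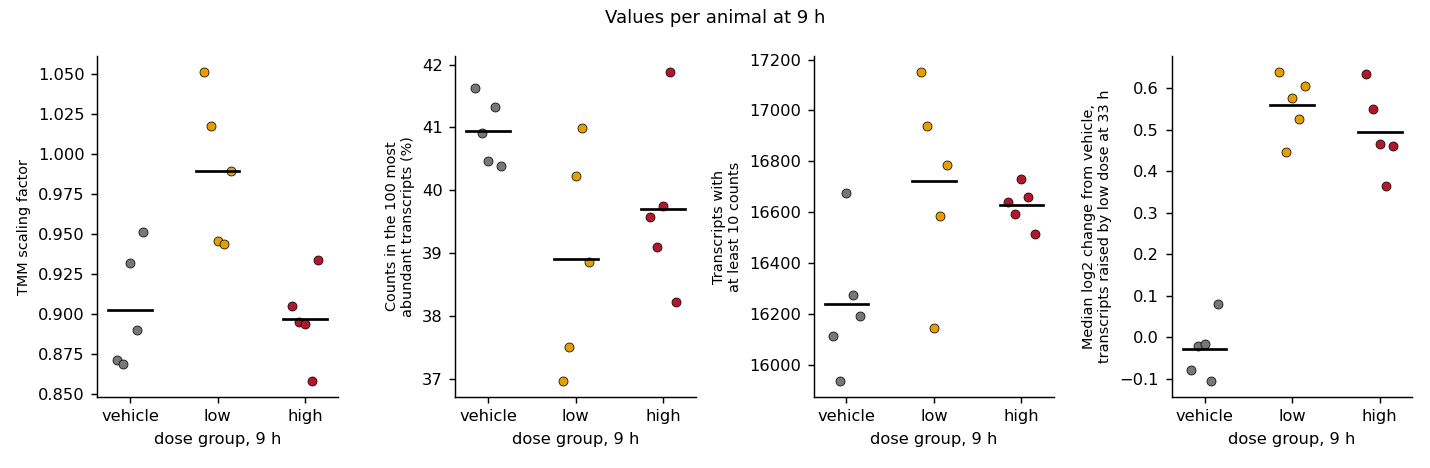
Each point is 1 animal at 9 h and each bar the mean of 5, for the TMM factor, the percentage of counts in the 100 most abundant transcripts, the number of transcripts with at least 10 counts, and the median log2 change from the vehicle mean of 649 transcripts raised by the low dose in the 33 h animals. The TMM factors of low and high dose animals do not overlap, while the other 3 values do.

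Between the doses 1292 transcripts, 7.08% of those tested, differed at 9 h, 522 (2.86%) higher and 770 (4.22%) lower at the high dose (edgeR, adjusted p under 0.05). The rises were the larger changes. The median rise was 0.71 on the log2 scale (quartiles 0.45 and 1.11) and the median fall -0.47 (quartiles -0.63 and -0.36), and 162 rises (0.888% of those tested) against 49 falls (0.269%) reached 2-fold. In 373 of the 522 rises and 484 of the 770 falls, no high dose animal overlapped any low dose animal. Of all tested transcripts 4.33% and 4.11% were separated in these directions. Separation and call come from the same counts, so a larger share among called transcripts is built in. The number of calls varied with the animal left out. It was 648 without high dose animal 3, 783 without high dose animal 4, and 805, 837 and 728 without low dose animals 1, 2 and 3. In the other 5 such fits it ran from 938 to 1485. A core of 201 rises and 338 falls was called in the same direction in each of the 10 fits that left out 1 animal. With library totals 176 of these rises and all 338 falls were called in the same direction and none in the other, whereas over all transcripts library totals gave 256 rises and 1738 falls.

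**Figure D2:**
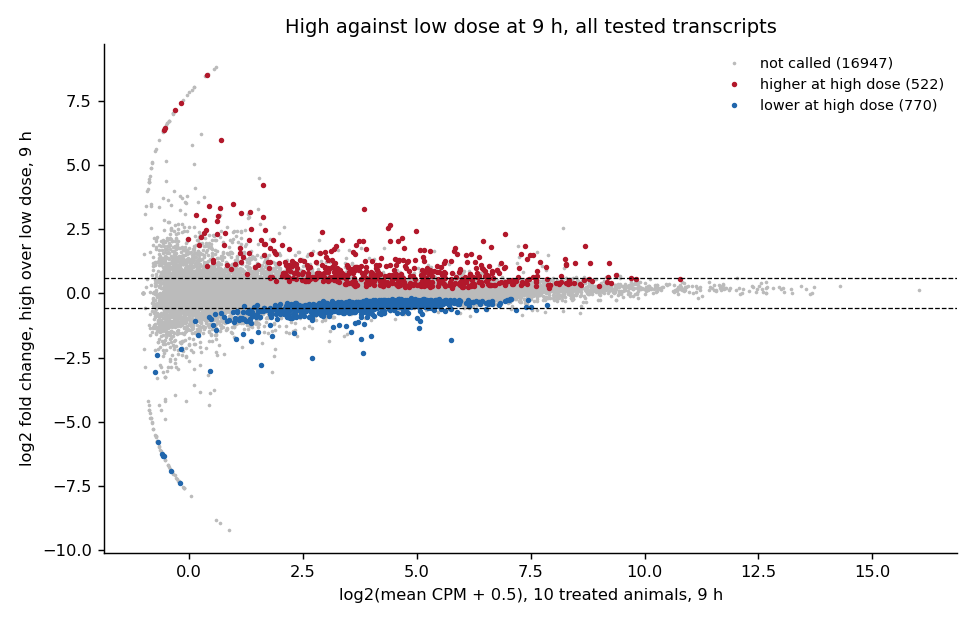
Each point is 1 of 18239 transcripts, placed by its level in the 10 treated animals (log2 of mean CPM plus 0.5) and by its log2 difference between high and low dose at 9 h, with 522 called rises in red, 770 called falls in blue and dashed lines at 1.5-fold. Most called falls lie closer to the 0 line than most called rises, but 13 falls and 41 rises are of at least 4-fold.

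The largest rise between doses that met the naming rule was graded. ENSCPOT00000036752.1, a transcript of 5904 bases, measured 6.13, 5.06, 4.94, 5.14 and 1.44 TPM in high dose animals 1 to 5 and 0.258, 0.431, 0.192, 1.04 and 0.668 TPM in low dose animals 1 to 5. Vehicle animals 1 to 5 measured 0.131, 0.154, 0.143, 0.228 and 0.138 TPM. Each high dose animal lay above each low dose animal, and low dose animal 3 lay inside the vehicle range. The fitted level of this transcript was 9.79-fold higher at the high than at the low dose (log2 difference 3.29 ± 0.52, SE, edgeR adjusted p = 0.000406, 95% interval of the ratio 4.69 to 20.5). Against vehicle its log2 fold change was 1.64 ± 0.53 with the low dose (edgeR adjusted p = 0.0238) and 4.93 ± 0.57 with the high dose (SE, edgeR adjusted p = 1.87e-07).

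Including ENSCPOT00000036752.1, the 12 rises that led under the rule had log2 differences of 2.04 to 3.29 between doses. In 9 of these 12 the low dose was already called above vehicle, and in none below it, where the low dose raised 13.5% and lowered 11.2% of all tested transcripts. Their median log2 fold change from vehicle was 2.11 with the low dose and 4.74 with the high dose. Their mean level in vehicle livers was 0.197 to 28.1 CPM with a median of 0.959 CPM, and at the high dose they reached up to 202 CPM. The limit of 5 CPM held for the high dose group alone, which lets in transcripts low in vehicle. In the 33 h animals 10 of the 12 were again called higher at the high dose and none lower, with a median log2 difference of 2.17. Of all tested transcripts 16.9% were called higher between doses at that time.

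Under the naming rule, which needs a mean of 5 CPM or more on the higher side and dose groups without overlap, the leading fall varied widely among the low dose animals. ENSCPOT00000009602.3, a transcript of 3694 bases, measured 22.2, 1.95, 10.2, 2.12 and 2.19 TPM in low dose animals 1 to 5. High dose animals 1 to 5 measured 1.32, 1.11, 1.39, 1.45 and 1.42 TPM, and vehicle animals 2.16 to 3.71 TPM with a median of 2.89 TPM. Low dose animals 1 and 3 stood far above the other low dose animals, which lay below the vehicle median. Each low dose and each vehicle animal lay above each high dose animal. The log2 difference of ENSCPOT00000009602.3 between doses was -2.32 ± 0.61 (SE, edgeR adjusted p = 0.0202), and it was not called without low dose animal 1 (-1.50, adjusted p = 0.128), without low dose animal 3 (-2.17, adjusted p = 0.0513) or without high dose animal 3 (-2.36, adjusted p = 0.0513). Neither dose was called against vehicle, with log2 fold changes of 1.26 ± 0.58 and -1.06 ± 0.60 (SE, edgeR adjusted p = 0.121 and 0.209). Single high animals of ENSCPOT00000009602.3 also occurred at 33 h, 1 vehicle animal at 11.3 TPM and 1 low dose animal at 10.05 TPM, with the other animals of those groups at 1.51 to 2.91 TPM.

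The 12 falls that led under the same rule had log2 differences of -0.96 to -2.32. Of all 770 called falls, 13 were of at least 4-fold. At the low dose 3 of the 12 were called below vehicle and 1 above it, and their median log2 fold change from vehicle was 0.01. At the high dose 8 were called below vehicle and none above, with a median of -1.26. The high dose lowered 12.8% of all tested transcripts. The same high dose animals entered the pick of the 12, which tilts their comparison with vehicle downward. At 33 h 4 of the 12 were called lower at the high dose than at the low dose and 1 was called higher, where 16.2% of all tested transcripts were called lower. The fitted difference at 33 h was above 0 in 5 of the 12, called or not.

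Transcripts already saturated at the low dose were found among rises and falls. The low dose raised 854 transcripts at least 2-fold (4.68% of those tested) and lowered 177 (0.97%). Of the 854 rises 107 (12.5%) were saturated, 108 (12.6%) were higher at the high dose, 10 (1.17%) were lower and 629 (73.7%) were undecided. Of the 177 falls 16 (9.04%) were saturated, 6 (3.39%) fell further, 13 (7.34%) were higher at the high dose and 142 (80.2%) were undecided. Among all tested transcripts the interval lay inside 1.5-fold for 43.8%, or 42.1% without those called between doses. Intervals over all transcripts were narrower, with a median standard error of 0.19 against 0.35 for the 854 rises and 0.31 for the 177 falls. The 123 saturated transcripts were abundant enough for narrow intervals, with a median standard error of 0.15 for the rises, against 0.41 among the undecided rises. Another rise of the 854 had an interval inside 1.5-fold and was called between doses, and it counts with the called transcripts alone.

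How many responses counted as saturated followed the margin and the precision. With a margin of 1.2-fold 4 transcripts passed and with a margin of 2-fold 353 did. Saturated rises came almost only from small rises. Of 479 rises of 2- to 4-fold 101 (21.1%) were saturated, of 173 rises of 4- to 8-fold 6 (3.47%), and of 73 rises of 8- to 16-fold and 129 of 16-fold or more none. The median standard error of the dose difference rose over the same classes from 0.26 to 0.41, 0.61 and 0.85, so an interval inside 1.5-fold was out of reach for most large rises at this depth and number of animals. Further rises at the high dose made up 13.8%, 14.5%, 10.96% and 6.98% of these classes.

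**Figure D3:**
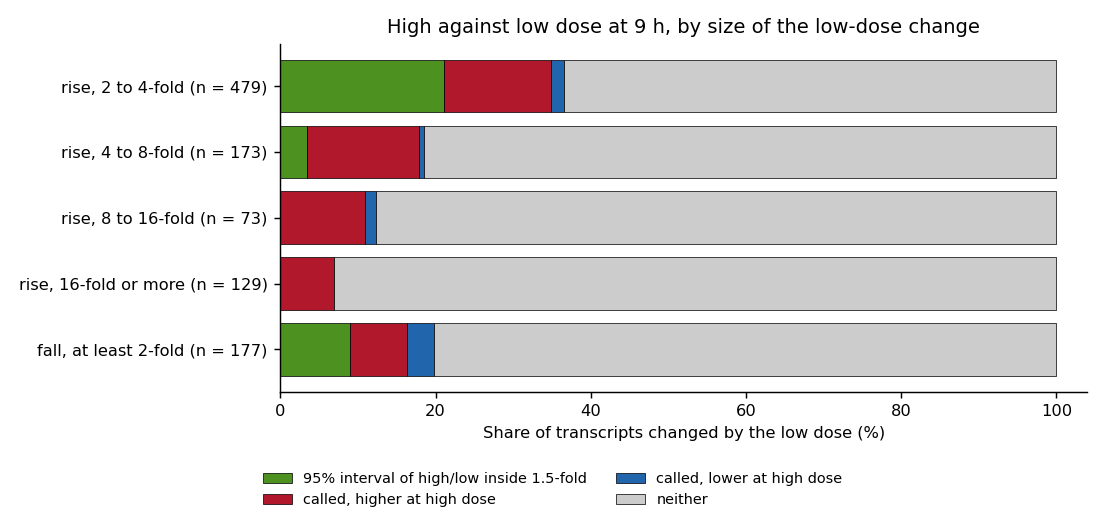
Each bar is a class of transcripts changed by the low dose at 9 h, by the size of that change, and its segments give the percentage of the class that was saturated (green), called higher at the high dose (red), called lower at the high dose (blue) or neither (grey). The green segment shrinks from 21.1% of the 2- to 4-fold rises to 3.47% of the 4- to 8-fold rises and is absent from larger rises.

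The largest saturated rise held the same level at both doses. ENSCPOT00000007517.3, a transcript of 2816 bases, measured 15.5, 14.1, 11.6, 15.99 and 17.1 TPM in low dose animals 1 to 5 and 13.3, 13.9, 12.5, 13.2 and 13.5 TPM in high dose animals 1 to 5. Vehicle animals 1 to 5 measured 1.60, 2.46, 2.33, 2.24 and 2.81 TPM. The treated groups of ENSCPOT00000007517.3 overlapped fully and stood clear of every vehicle animal. The transcript was 6.09-fold above vehicle for the low dose and 6.12-fold for the high dose in the fit, with log2 fold changes of 2.61 ± 0.16 at each dose (SE). The log2 difference between doses was 0.01 ± 0.15 (SE, edgeR adjusted p = 0.988), and the 95% interval of the ratio of ENSCPOT00000007517.3 was 0.81 to 1.25.

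The largest saturated fall was that of an abundant transcript. ENSCPOT00000015085.3, of 963 bases, measured 234, 279, 261, 248 and 233 TPM in low dose animals 1 to 5 and 241, 210, 185, 200 and 235 TPM in high dose animals 1 to 5. Vehicle animals 1 to 5 measured 510, 448, 648, 673 and 805 TPM. Each treated animal was below each vehicle animal, and the treated groups overlapped. The log2 fold change of ENSCPOT00000015085.3 from vehicle was -1.38 ± 0.18 at 25 mg/kg and -1.44 ± 0.18 at 100 mg/kg, with a difference of -0.06 ± 0.18 (SE, edgeR adjusted p = 0.896, 95% interval of the ratio 0.747 to 1.23).

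**Figure D4:**
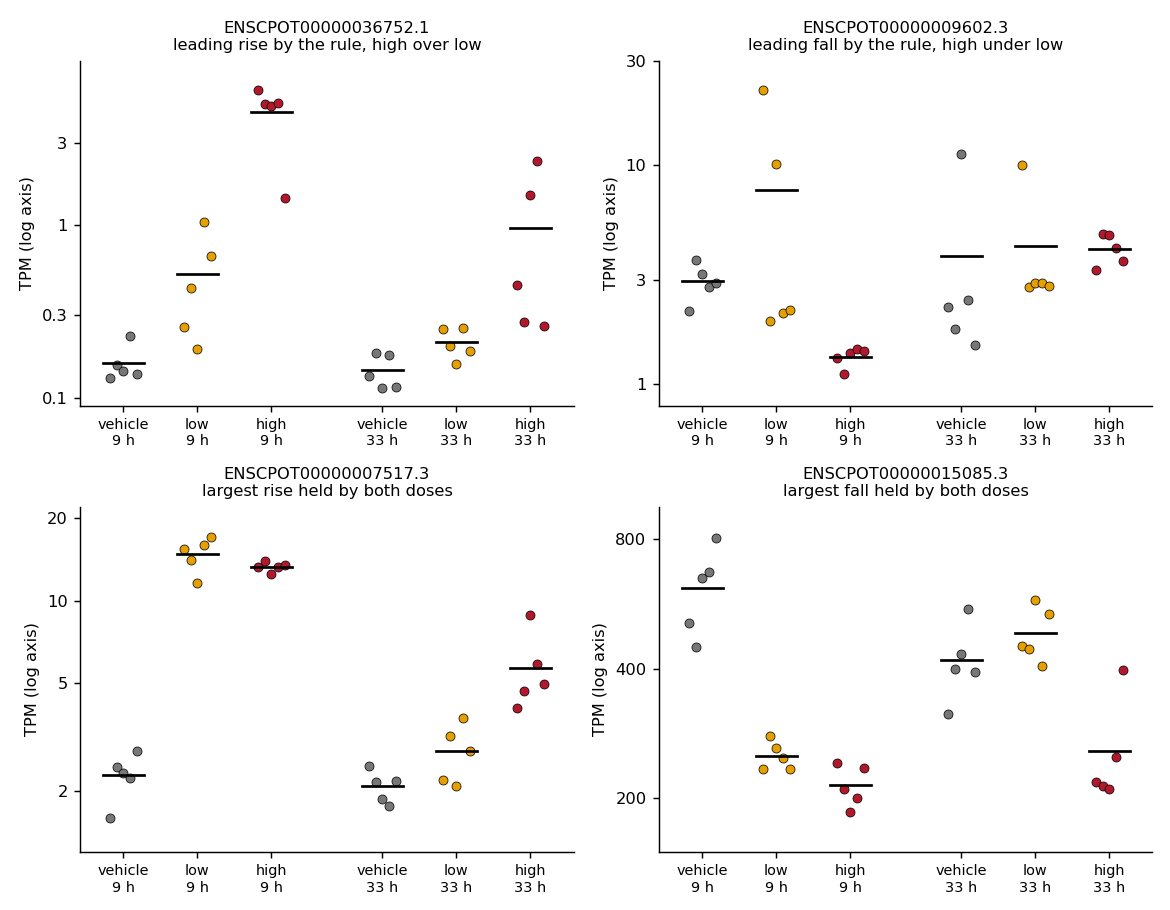
TPM of the 4 named transcripts in every animal (points) with group means (bars), on log axes, for vehicle, low and high dose at 9 h and at 33 h. The upper panels hold the rise and the fall between doses at 9 h that led under the naming rule, and the lower panels the largest saturated rise and fall, whose treated groups overlap at 9 h and lie apart at 33 h.

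Levels that matched between doses at 9 h often differed between doses at 33 h, in other animals. ENSCPOT00000007517.3 measured 2.80 ± 0.678 TPM in low dose and 5.66 ± 1.90 TPM in high dose animals at 33 h, with vehicle at 2.09 ± 0.280 TPM (SD, n = 5 each). The low dose level was then near that of vehicle (log2 fold change 0.01 ± 0.16, edgeR adjusted p = 0.979), while the high dose was higher by 0.79 ± 0.16 than the low dose on the log2 scale (SE, edgeR adjusted p = 0.000338). ENSCPOT00000015085.3 measured 483 ± 70.9 TPM in low dose and 257 ± 79.4 TPM in high dose animals at 33 h, with vehicle at 418 ± 86.3 TPM (SD, n = 5 each). Its log2 difference between doses at 33 h was -1.17 ± 0.18 (SE, edgeR adjusted p = 1.95e-05), and the low dose was not called against vehicle (-0.17 ± 0.18, SE, edgeR adjusted p = 0.533). For each of these 2 transcripts the difference of the dose differences between times was also called (0.79 ± 0.22, edgeR adjusted p = 0.00871 for ENSCPOT00000007517.3, and -1.11 ± 0.25, edgeR adjusted p = 0.00174 for ENSCPOT00000015085.3, SE). The rule that picked them kept the 9 h difference inside 1.5-fold, so this test largely repeats the 33 h call.

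The same held for many of the other saturated transcripts. Of the 107 saturated rises 46 (43.0%) were higher and 2 (1.87%) lower at the high dose at 33 h, against 16.9% and 16.2% of all tested transcripts, and their median log2 difference between doses moved from 0.01 at 9 h to 0.34 at 33 h. Of the 16 saturated falls 13 (81.2%) were lower at the high dose at 33 h and none higher, with a median of -0.92. The change of the dose difference between times was called in 29 of the 107 rises (27.1%), all upward, and in 11 of the 16 falls, all downward, where 25.6% of all tested transcripts were called, 12.9% upward and 12.7% downward. Saturation already holds the 9 h difference inside 1.5-fold, so these counts are not separate from the 33 h calls. At 33 h 63 of the 107 rises were still above vehicle with the low dose and 85 with the high dose, with median log2 fold changes of 0.53 and 0.98, where 14.3% and 28.2% of all tested transcripts were called above vehicle. The 107 rises had median levels of 8.41 TPM in vehicle, 25.0 TPM in low dose and 22.4 TPM in high dose livers at 9 h. The 108 rises that were higher at the high dose at 9 h included 70 (64.8%) that were higher and none that were lower at the high dose at 33 h, and their median levels at 9 h were 1.99, 8.62 and 19.0 TPM.

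Picked at the high dose in place of the low dose, early rises had a larger median difference between doses. The high dose raised 1210 transcripts at least 2-fold (6.63% of those tested), of which 112 (9.26%) had an interval inside 1.5-fold, 238 (19.7%) were higher than at the low dose and 1 was lower. Their median log2 fold change was 1.36 at the low and 1.96 at the high dose. For the 854 rises picked at the low dose the medians were 1.75 and 2.14. Among 280 falls of at least 2-fold at the high dose (1.54% of those tested) 21 (7.5%) had an interval inside the margin and 80 (28.6%) were lower than at the low dose, with medians of -0.83 and -1.36. In the 177 falls picked at the low dose the medians were -1.31 at the low and -1.02 at the high dose, so among changes of at least 2-fold the order of the doses turned with the selection for falls and not for rises. Among called rises of any size it turned for rises too, with a median difference of -0.07 in the 2466 picked at the low dose and 0.23 in the 2469 picked at the high dose. With library totals the median differences between doses were 0.12 for the 854 rises of at least 2-fold picked at the low dose and 0.45 for the 1210 picked at the high dose. For the called rises of any size they were -0.21 in the 2466 and 0.09 in the 2469.

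Of the transcripts selected in other animals, those raised at 33 h had similar medians at both doses at 9 h, and those lowered at 33 h lay lower at the low dose. The low dose raised 649 transcripts at least 2-fold at 33 h (3.56% of those tested). At 9 h the median log2 fold change of these 649 from vehicle was 0.83 at the low and 0.72 at the high dose, with a median difference of -0.03, or -0.17 with library totals. Their median per animal, on log2(CPM + 0.5) against the vehicle mean, ran from 0.45 to 0.64 in low dose and from 0.36 to 0.63 in high dose animals, so the groups overlapped. Among the 649, 82 (12.6%) had an interval inside 1.5-fold, 20 (3.08%) were higher and 16 (2.47%) lower at the high dose at 9 h, shares near the 2.86% and 4.22% of all tested transcripts. The high dose raised 2069 transcripts at least 2-fold at 33 h (11.3% of those tested). Their median log2 fold change at 9 h was 0.55 at the low and 0.54 at the high dose, with a median difference of 0.01, or -0.13 with library totals. Of the 2069, 111 (5.36%) were called higher and 50 (2.42%) lower at the high dose at 9 h. Their median difference varied with the size of the 33 h rise. It was -0.05 for rises of 2- to 4-fold, 0.11 for 4- to 8-fold, 0.43 for 8- to 16-fold and 0.50 for 16-fold or more. In the same classes of the 649 low dose rises it was -0.11, 0.22, 0.26 and -0.01. Of the falls of at least 2-fold at 33 h, the 293 of the low dose (1.61% of those tested) had medians at 9 h of -0.31 at the low and -0.03 at the high dose. The median difference of these 293 was 0.27, or 0.12 with library totals. The 1653 falls of the high dose (9.06% of those tested) had medians of -0.38 and -0.13, with a median difference of 0.23, or 0.09 with library totals.

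Strict examples of a response at 1 dose alone were few. Of the 1210 high dose rises, 7 had a low dose level whose 95% interval lay inside 1.5-fold of vehicle, and all 7 were also called between doses, with a median log2 difference of 0.999. Of the 280 high dose falls 8 met this rule, and all 8 were called between doses, with a median of -0.93. In the other direction 1 of 854 low dose rises and 1 of 177 low dose falls had a high dose level within 1.5-fold of vehicle. The rule uses the same animals as the call between doses and makes that call likely. Interval width also limits how many can pass. The median standard error of the dose difference was 0.35 for the 1210 rises and 0.30 for the 280 falls.

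The rises between doses fell into groups that differed in where the low dose lay. In 293 of the 522 the fitted low dose level was above vehicle and the high dose went further, with median log2 fold changes of 0.78 and 1.72 from vehicle. In 227 the low dose lay below vehicle, with a median of -0.39, and the high dose lay near it, with a median of 0.07. The other 2 were fitted at the vehicle level. The low dose was called above vehicle in 172 of the 293 and below it in 139 of the 227. The split goes by the sign of the fitted low dose value, and the same low dose animals enter the call between doses. The 227 were more abundant in vehicle livers of 33 h, at a median of 15.8 TPM against 3.22 TPM for the 293. At 33 h the groups went opposite ways in other animals. Of the 293, 163 (55.6%) were again higher at the high dose and 10 (3.41%) lower, with a median log2 difference of 0.64. Of the 227, 20 (8.81%) were higher and 140 (61.7%) lower, with a median of -0.40, against 16.9% and 16.2% of all tested transcripts. With library totals 182 of the 293 and 70 of the 227 were called higher between doses at 9 h and none lower.

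Falls between doses divided likewise. In 459 of the 770 the fitted low dose level was above vehicle and the high dose below the low dose, with median log2 fold changes of 0.23 and -0.22 from vehicle. In 311 the fitted low dose level was below vehicle and the high dose further below, with medians of -0.19 and -0.72. The low dose was called above vehicle in 158 of the 459 and below it in 89 of the 311. At 33 h 138 of the 459 (30.1%) were higher and 15 (3.27%) lower at the high dose, and 23 of the 311 (7.40%) were higher and 60 (19.3%) lower. As a whole, 183 of the 522 rises (35.1%) and 75 of the 770 falls (9.74%) were called in the same direction at 33 h, which is 5.93% of the rises and 2.53% of the falls called between doses at that time. Another 150 rises and 161 falls were called the opposite way at 33 h. Each count at 33 h should be read beside the share of all tested transcripts called in its direction, 16.9% higher and 16.2% lower.

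**Figure D5:**
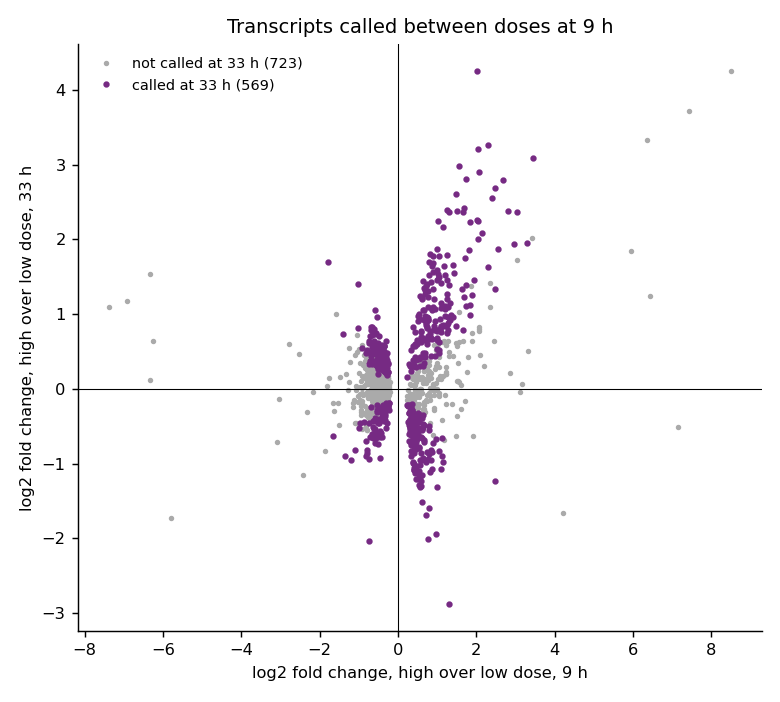
Each point is 1 of the 1292 transcripts called between doses at 9 h, with its log2 difference of high over low dose at 9 h (horizontal) and at 33 h in other animals (vertical), purple where it was also called at 33 h (569). Rises at 9 h split into an upper group that was higher and a lower group that was lower at the high dose at 33 h. Of the 770 falls at 9 h 161 were called higher and 75 lower at 33 h.

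The direction of the dose difference also varied with abundance and length. Among 7701 transcripts at 1 to 10 TPM in vehicle animals of 33 h, 205 were higher and 527 lower at the high dose, and among 4486 at 10 to 100 TPM 175 were higher and 198 lower. Of 5118 under 1 TPM, 100 were higher and 44 lower. With library totals the counts were 105 higher and 1097 lower at 1 to 10 TPM, 68 and 546 at 10 to 100 TPM, and 74 and 88 under 1 TPM, where the direction turned. Among 805 transcripts in the next class, from 100 TPM up to 1000 TPM, 40 were higher and 1 lower, but with library totals 9 were higher and 6 lower, and their median log2 difference moved from 0.19 to 0.05. By length, the shortest of 4 equal classes of tested transcripts (78 to 1473 bases) had 143 rises and 132 falls and the longest (4130 to 21861 bases) 121 rises and 237 falls, with median log2 differences of 0.06 and -0.04. With library totals all 4 length classes leaned to falls, 71 rises against 267 falls in the shortest and 56 against 548 in the longest. The part of transcript length in the dose difference was not tested.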

How the data were processed

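Poly-A enriched liver RNA was sequenced as paired ends from a stranded library kit, per the labels' protocols. The authors quantified transcripts with kallisto 0.42.4, per the submitters' processing notes, against a transcript set not given in the sources used here. The deposited estimated counts carry no normalization, and the deposited TPM values are scaled over effective length. Reads shared by similar transcripts are divided by that estimate, so the level of 1 transcript can reflect how reads were divided. The reference table used here (37416 genes, assembly mCavPor4.1) matched 0 identifiers, so tests ran per transcript and the gene lists were not used.

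Groups came from the labels, 6 groups of 5 animals, and replicate numbers are only names. The design describes 30 animals, so libraries were taken as separate animals. No batch or date is given. The rounded estimated counts went into edgeR 4.0.16 under R 4.3.3 (filterByExpr with minimum count 10 and minimum total 15, TMM, robust quasi-likelihood fit of all 30 libraries, 24 residual degrees of freedom). Tested transcripts held 99.95% to 99.98% of counts. Adjusted p-values are Benjamini-Hochberg over 18239 transcripts. Each standard error was obtained by dividing the log2 fold change by the root of its F statistic, with a prior count of 0.125. Intervals are t intervals at 95%, and the CPM values use TMM-scaled library sizes.

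The naming rule took the largest rise and fall between doses (adjusted p under 0.05, at least 5 CPM in the higher group, no overlap of animals) and the largest low dose rise and fall from vehicle under the same limits whose dose interval lay inside 1.5-fold. The members, rules and lists were chosen with earlier results of these data known. Classes by abundance, length, 33 h selection and position of the low dose were chosen after seeing the data. The fit was tested on simulated data. Alternatives were median-of-ratios size factors, library totals, no filter, limma voom 3.58.1, DESeq2 1.42.0, a stricter filter of 1 CPM in 5 libraries, fits of 10 or 15 animals, other margins and leaving out each animal.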

Additional observations from a re-analysis of the deposited data

Results flagged for a closer look

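Single animals stood apart in ENSCPOT00000036752.1, the leading rise under the naming rule. High dose animal 5, at 1.44 TPM, lay far below the other high dose animals, which measured 4.94 to 6.13 TPM. Vehicle animal 4, at 0.228 TPM, lay above the other vehicle animals at 0.131 to 0.154 TPM. These were the only animals past Dixon's 95% limit among 21 groups of values examined, where chance passes about 1 in 20. That statement does not cover the 33 h groups, where single animals also stood apart. ENSCPOT00000009602.3 reached 11.3 TPM in 1 vehicle animal and 10.05 TPM in 1 low dose animal at 33 h. ENSCPOT00000015085.3 reached 397 TPM in 1 high dose animal at 33 h.

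The dose difference changed with time for 4670 transcripts (25.6% of those tested, edgeR adjusted p under 0.05), among them ENSCPOT00000007517.3 by 0.79 and ENSCPOT00000015085.3 by -1.11 on the log2 scale. These 2 had matching levels between doses at 9 h, as the rule that picked them requires, and differed at 33 h.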

How the results depend on the processing

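The number of transcripts called between doses at 9 h was 1292, with 1994 by library totals and 2541 by limma voom, 1119 to 1688 under the other 6 alternatives, and 648 to 1485 without single animals. Rises were 40.4% of calls with all animals fitted, 43.6% with median-of-ratios factors, 12.8% with library totals, 45.8% with DESeq2, 48.5% with limma voom and 52.0% with the 10 compared animals alone. No transcript called both with TMM and under an alternative, single animals left out included, changed its direction. The number of saturated transcripts was 123, with 4 at a margin of 1.2-fold and 353 at 2-fold. It was 120 to 147 under 8 other alternatives, and 100 to 121 without single animals. Those 8 include counts inside the margin in other sets of transcripts, 133 among high dose responders and 123 among low dose responders of 33 h. Calls of the same direction at 33 h came to 258, with 458 by limma voom and 146 to 297 without single 9 h animals. Low dose responders of at least 2-fold ran from 922 to 1054 and high dose responders from 1441 to 1519 without single animals. The difference in the share of the 100 most abundant transcripts, 0.80 points, ran from 0.26 to 1.32 without single animals and from 0.22 to 1.78 under other rankings or units, and never passed. The difference in transcripts with 10 counts, -93.6, ran from -238 to 14.2 without single animals, the last without low dose animal 1, and never passed. The fall of ENSCPOT00000009602.3 was also not called with limma voom or the 10 animals alone. No paired analysis was possible because the replicate numbers are only names given in accession order. Depth and 5 animals per group leave large changes of scarce transcripts undecided.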
